A study of Mus musculus with 12 samples.

Results

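Transcripts of 9 genes that mark GABAergic neurons were followed in cultures that were made to yield glutamatergic neurons. The genes were chosen by name and matched by symbol to the Ensembl identifiers of the count tables: Gad1, Gad2 and Slc32a1 for the synthesis and vesicular transport of GABA, Lhx6, Dlx1, Dlx2 and Dlx5 for transcription factors of interneuron development, and Sst and Npy for neuropeptides. All 9 were found among the 33560 genes with counts, and 8 of them passed the filter on low counts; Dlx5 did not. The RNA came from neurons differentiated in vitro from mouse embryonic stem cells and collected at day 21 in culture, in 12 poly(A)-selected libraries. WT neurons (cell line label Daam1-MIC_WT) and KO neurons (Daam1-MIC_KO, in which a microexon is missing from Daam1, whose product is an actin-nucleating formin) were each given either water as vehicle or 10 µM Y-27632, a kinase inhibitor, for 2 h. Each of 3 WT lines (WT1, WT2 and WT3) and 3 KO lines (KO1, KO2 and KO3) gave 1 vehicle and 1 inhibitor library, which made 4 groups of 3 libraries. Whether the lines are separate clones is not given in the sources used here, so p-values measure the spread between these libraries. The design text of the series names hippocampus, whereas every sample label describes cultured neurons; the sample labels were followed.

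GABA, the main inhibitory transmitter of the adult brain, is made from glutamate by the glutamate decarboxylases GAD67 and GAD65, the products of Gad1 and Gad2, and is loaded into synaptic vesicles by the transporter VGAT, the product of Slc32a1. VGAT also loads glycine, so Slc32a1 is shared by GABAergic and glycinergic neurons. In the forebrain, cortical interneurons arise from ventral progenitors under the homeodomain factors Dlx1, Dlx2 and Dlx5, and Lhx6 marks those of medial ganglionic eminence origin, many of which make somatostatin (Sst) or neuropeptide Y (Npy). GABAergic neurons of the midbrain, hindbrain and spinal cord use other transcription factors, among them Pax2, Lbx1, Lhx1 and Ptf1a.

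Library totals ran from 23253566 to 35012561 counts, and 3 counts corresponded to at most 0.129 CPM by library totals. CPM is a count scaled to a common library size, elsewhere with TMM factors. The KO3 inhibitor library stood apart from the others: its median correlation of log2 CPM with the other libraries was 0.854, against 0.953 to 0.986 for those 11. It lay at the far end of the first principal component, which held 74.3% of the variance over 15443 genes. The WT2 vehicle and the WT3 inhibitor library were each other's closest library (r = 0.985), although they come from different lines. Fold changes and separations of the members are therefore also given without these libraries. The counts are per gene, so they cannot check the deletion of a microexon.

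The members are spread over 3 chromosomes, with 6 of 9 on chromosome 2, 2 on chromosome 6 and Sst on chromosome 16 (GRCm38, GENCODE M21). Gad1 (chr2:70553072-70602014, plus strand) lies 926.1 kb from Dlx1 (chr2:71528113-71533981, plus strand), and Dlx1 lies 9.427 kb from Dlx2 (chr2:71543408-71546754, minus strand). Gad2 (chr2:22622205-22693874, plus strand), Slc32a1 (chr2:158610767-158615748, plus strand) and Lhx6 (chr2:36081953-36105408, minus strand) are further apart. Sst is at chr16:23889573-23890958 on the minus strand, Npy at chr6:49822710-49829507 on the plus strand and Dlx5 at chr6:6877805-6882085 on the minus strand. All 9 are protein-coding genes. Antisense genes overlap 3 members: Gad1os never exceeded 7 counts in a library, the Slc32a1 antisense gene Gm14205 ran from 3 to 15 counts, and Dlx1as was at 0 in every library. The libraries were stranded per the labels, but whether counting used the strand is not given in the sources used here.

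RefSeq promoter windows (GRCm38.p6) were matched for 8 of the 9 members. The bases upstream of the RefSeq start, clear of coding-gene exons, are shown for the 3 GABA-handling genes, which were well expressed, and for Dlx2, which was near the limit of detection. RefSeq and GENCODE starts can differ: the stretch shown for Gad1 lies within the GENCODE span of Gad1 given above. CG dinucleotides are in capitals and each sequence reads 5′ to 3′ on the strand of its gene.
Gad1, chr2:70561879-70562041, plus strand: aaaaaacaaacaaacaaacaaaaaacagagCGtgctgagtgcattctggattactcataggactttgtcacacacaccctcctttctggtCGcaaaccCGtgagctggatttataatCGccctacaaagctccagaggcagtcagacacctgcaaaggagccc
Gad2, chr2:22622077-22622204, plus strand: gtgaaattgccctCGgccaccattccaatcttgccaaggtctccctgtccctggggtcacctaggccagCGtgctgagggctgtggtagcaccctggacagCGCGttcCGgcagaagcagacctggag
Slc32a1, chr2:158610508-158610757, plus strand: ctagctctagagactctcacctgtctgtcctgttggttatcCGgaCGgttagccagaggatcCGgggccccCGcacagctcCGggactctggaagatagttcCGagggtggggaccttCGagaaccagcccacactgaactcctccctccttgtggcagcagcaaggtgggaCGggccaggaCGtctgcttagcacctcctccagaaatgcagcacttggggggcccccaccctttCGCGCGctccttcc
Dlx2, chr2:71546755-71547004, minus strand: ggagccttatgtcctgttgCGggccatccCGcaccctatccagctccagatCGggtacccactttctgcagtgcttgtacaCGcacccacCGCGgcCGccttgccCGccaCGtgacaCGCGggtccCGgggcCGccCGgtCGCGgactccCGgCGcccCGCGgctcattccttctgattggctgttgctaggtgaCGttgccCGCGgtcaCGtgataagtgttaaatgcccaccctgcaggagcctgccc
The stretches shown for Gad1 and Gad2 are shorter than the full window, since they end where a coding-gene exon begins. They hold 4 and 5 CG dinucleotides. Over the full 250 bases upstream of the start there were 17 CG dinucleotides in Gad1, 13 in Gad2, 12 in Slc32a1 and 24 in Dlx2, against a median of 6 over 32851 RefSeq windows of that length. Dlx1, as barely expressed as Dlx2, held 22, while the strongly expressed Npy and Sst held 21 and 8.

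For Sst, the 30 bases around its cAMP response element are shown, since Sst was the most abundant member and this element is the textbook site of CREB binding; the capitals mark the letters TGACGTCA.
Sst, chr16:23890874-23890903, minus strand: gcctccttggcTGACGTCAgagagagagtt
The motif lies at positions -48 to -41 from the RefSeq start of Sst. The bases shown lie within the GENCODE span of Sst given above. TGACGTCA, which reads the same on both strands, was found in 1.55% of all 32851 windows, and among the members' windows only in that of Sst. The homeodomain core TAATTA, also the same on both strands, was in 4.84% of all windows and in no window of the 8 members. The E-box CAGCTG, likewise the same on both strands, was in 13.0% of all windows and occurred 2 times in 1 Lhx6 window. These matches describe letters in the windows and are not evidence of binding.

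The 9 genes fell into 6 that were well expressed and 3 that were barely detected. In cRPKM, the authors' corrected form of RPKM, which is scaled by gene length and library size and can be compared between genes, the mean over the 12 libraries was 204 for Sst, 77.5 for Npy, 57.6 for Gad1, 55.0 for Slc32a1, 31.0 for Gad2 and 4.84 for Lhx6. The means of Dlx1, Dlx2 and Dlx5 were 0.163, 0.119 and 0.0925 cRPKM. Sst ranked 239th of 33560 genes by mean cRPKM, while each of the 3 Dlx genes ranked below the 12740 genes with a mean above 1 cRPKM. The order of the levels held in all 12 libraries for Sst over Npy, Npy over Gad1, Slc32a1 over Gad2, Gad2 over Lhx6 and Lhx6 over Dlx1. Gad1 exceeded Slc32a1 in 8 of 12 libraries, Dlx1 exceeded Dlx2 in 8 and Dlx2 exceeded Dlx5 in 7, so the order of these neighbours was not the same in every library.

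**Figure D1:**
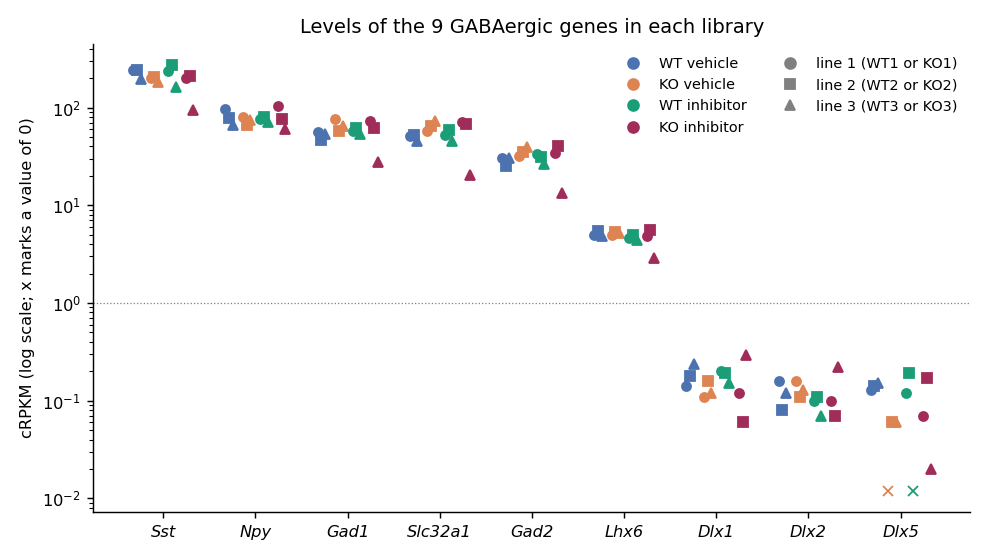
Level of each member in each of the 12 libraries in cRPKM on a log axis, coloured by group and with a marker for each line; crosses stand for a value of 0. Sst lies highest, 6 genes lie above 1 cRPKM in every library and the 3 Dlx genes lie below it in every library.

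The enzymes and the vesicular transporter of GABA were present in every library. Gad1, the gene for the decarboxylase that makes most of the brain's GABA, ran from 27.8 to 76.3 cRPKM over the 12 libraries and from 46.7 to 76.3 over the 11 without the KO3 inhibitor library. Gad2, the gene for the synaptic decarboxylase, ran from 13.4 to 40.3 cRPKM, and from 25.2 over those 11. Slc32a1, the vesicular transporter gene, ran from 20.2 to 73.5 cRPKM, and from 45.3 over those 11. The lowest value of each was thus that of the single library that stood apart. Set against Slc17a6, which encodes the vesicular glutamate transporter VGLUT2 and was the most abundant glutamatergic marker at a mean of 73.3 cRPKM, the ratio of Slc32a1 to Slc17a6 was between 0.484 and 0.883 in the same 11 libraries. In a bulk library fewer cells of a type and less RNA per cell cannot be told apart.

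The neuropeptide genes were the most abundant members. Sst, whose peptide somatostatin inhibits release from neurons and endocrine cells, ran from 94.0 to 271 cRPKM over the 12 libraries. Npy, whose peptide is widely made by interneurons and by other neurons, ran from 60.9 to 104 cRPKM. Over the 11 libraries without the KO3 inhibitor library, the coefficient of variation of the cRPKM was 14.5% for Sst and 14.9% for Npy, close to the 14.2% of Gad1 and the 14.4% of Gad2.

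Lhx6 was the steadiest of the expressed members and the Dlx genes were near the limit of detection. Lhx6, the LIM homeodomain factor of interneurons born in the medial ganglionic eminence, had a mean of 5.02 cRPKM and a coefficient of variation of 7.23% over those 11 libraries. Dlx1 had 9 to 35 counts per library and Dlx2 5 to 16. Dlx5 had 5, 5 and 6 counts in the WT vehicle libraries, 0, 2 and 2 in the KO vehicle libraries, 5, 7 and 0 in the WT inhibitor libraries and 3, 8 and 1 in the KO inhibitor libraries. A count of 0 allows up to 3 counts, which was 0.107 CPM in the KO1 vehicle library and 0.0984 CPM in the WT3 inhibitor library by their totals; these limits cover counting error alone. At these counts, the filter left Dlx5 out of the main edgeR tests and of the 8 members counted in the comparisons below. DESeq2, run without that filter, gave Dlx5 a log2 fold change of -1.79 ± 1.26 (SE) for KO against WT in vehicle (unadjusted p = 0.156, DESeq2). The vehicle groups of Dlx5 did not overlap, with KO lower, beside 4.90% of the genes tested in edgeR.

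Other genes of inhibitory neurons were read from lists. The enzymes that break GABA down were present, the GABA transaminase gene Abat at a mean of 99.0 cRPKM and the succinic semialdehyde dehydrogenase gene Aldh5a1 at 34.0 cRPKM. Of 16 ventral forebrain and interneuron transcription factor genes, 11 were below a mean of 1 cRPKM, among them Nkx2-1, the factor that specifies the medial ganglionic eminence, at 0.00667. The 4 highest were Npas1 (8.58), Nr2f2 (5.88), Satb1 (3.81) and Maf (1.95). Lhx6 was thus present at a mean of 4.84 cRPKM in libraries where Nkx2-1, which acts upstream of it in the medial ganglionic eminence, reached at most 0.03.

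Some, but not all, genes on the list of more caudal inhibitory neurons were more abundant. Of 11 genes on that list, 7 had a mean above 1 cRPKM. They were led by the plasma membrane glycine transporter gene Slc6a5 (23.6), which marks glycinergic neurons, followed by the homeobox and paired box factor genes Lhx1 (17.5), Pax2 (14.5) and Lbx1 (11.2). The other 4 had means below 1 cRPKM: Ptf1a (0.864), Gata3 (0.28), Tal1 (0.235) and Gata2 (0.14). The ratio of Slc6a5 to Slc32a1 in cRPKM was between 0.349 and 0.502 over the 11 libraries without the KO3 inhibitor library, with a coefficient of variation of 10.3%. Of 15 interneuron subtype markers, 11 had a mean above 1 cRPKM, led by Lamp5 (53.5), the tachykinin gene Tac1 (46.4), the calretinin gene Calb2 (42.2) and the receptor tyrosine kinase gene Kit (35.0). Of 12 glutamatergic markers, 10 were below a mean of 1 cRPKM: beside Slc17a6 only Bcl11b, a factor also made by inhibitory neurons, exceeded it, at 3.71. The dorsal forebrain markers Emx1 and Tbr1 had means of 0.42 and 0.33, and Slc17a7, the gene for the vesicular glutamate transporter VGLUT1, had 0.412. The labelled cell type was therefore met by 1 of its defining markers, Slc17a6, at a level close to that of Gad1 and Slc32a1.

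**Figure D2:**
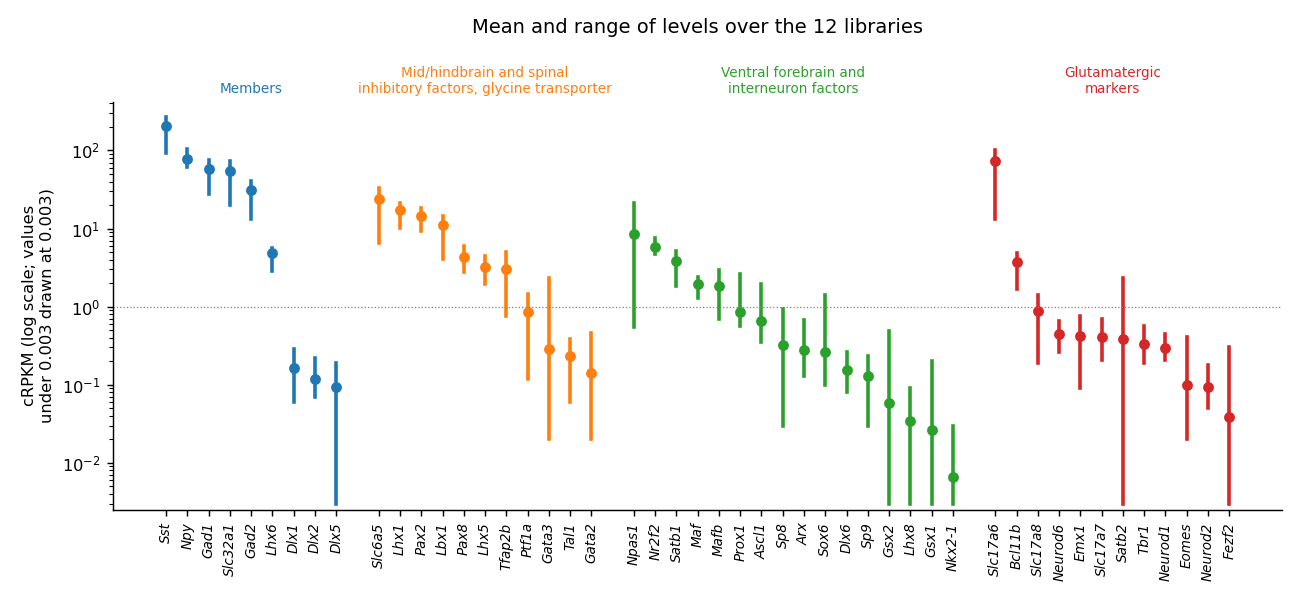
Mean (point) and range (line) of cRPKM over the 12 libraries for each gene of 4 lists, on a log axis with values under 0.003 drawn at 0.003. Slc6a5, Lhx1, Pax2 and Lbx1 lie above 1 cRPKM in every library. Of the ventral forebrain factors 11 of 16 have a mean below it, as do 4 of the 11 genes on the list that holds Slc6a5.

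The first comparison asked whether loss of the Daam1 microexon went with a difference in the GABAergic genes of vehicle-treated neurons. Gad1 was at 182, 159 and 175 CPM in the WT vehicle libraries and at 259.6, 192 and 217 CPM in the KO vehicle libraries. Gad2 was at 167, 145 and 165 CPM in WT and at 185, 199 and 225 CPM in KO. Slc32a1 was at 138, 148 and 122 CPM in WT and at 163, 177 and 206 CPM in KO. For each of these 3 genes all KO vehicle libraries lay above all WT vehicle libraries, that is, the groups were separated with no overlap. The log2 fold change was 0.37 ± 0.30 (SE) for Gad1, 0.35 ± 0.33 for Gad2 and 0.42 ± 0.38 for Slc32a1, and none passed the test (adjusted p = 0.999 for each, edgeR quasi-likelihood test with Benjamini-Hochberg adjustment, 3 against 3 libraries).

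The peptides and the transcription factors tested in edgeR did not share that separation. Sst was at 130.1, 139 and 107 CPM in WT and at 114.5, 112 and 103 CPM in KO, and its log2 fold change was -0.19 ± 0.30. Npy was at 48.9, 42.0 and 33.4 CPM in WT and at 42.5, 34.2 and 39.3 CPM in KO, which gave a log2 fold change of -0.10 ± 0.21. Lhx6 was at 15.2, 17.8 and 15.0 CPM in WT and at 16.2, 17.1 and 16.9 CPM in KO; the log2 fold change was 0.065 ± 0.23. For all of these the groups overlapped. Dlx1 (0.551, 0.740 and 0.947 CPM in WT, 0.476, 0.649 and 0.510 in KO) and Dlx2 (0.379, 0.195 and 0.294 CPM in WT, 0.403, 0.260 and 0.314 in KO) overlapped too, with log2 fold changes of -0.45 ± 0.47 and 0.17 ± 0.44.

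Of the 8 members tested, 3 were separated between the vehicle groups and higher in KO, against 7.62% of all 15443 genes tested, and 0 were separated and lower, against 4.90%. No member was called, nor was any gene (0.00% of those tested; edgeR quasi-likelihood test). At an unadjusted p below 0.05, edgeR counted 307 genes (1.99%) and DESeq2 557 genes, none of them a member. At an adjusted p below 0.05, DESeq2 called 10 genes and none of the members. Without the WT2 vehicle library, Lhx6 joined Gad1, Gad2 and Slc32a1, so that 4 members were separated and higher, against 11.7% of all genes, and 0 lower, against 9.01%. The median log2 fold change of the 8 members was 0.12, and that of all genes tested was -0.010.

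**Figure D3:**
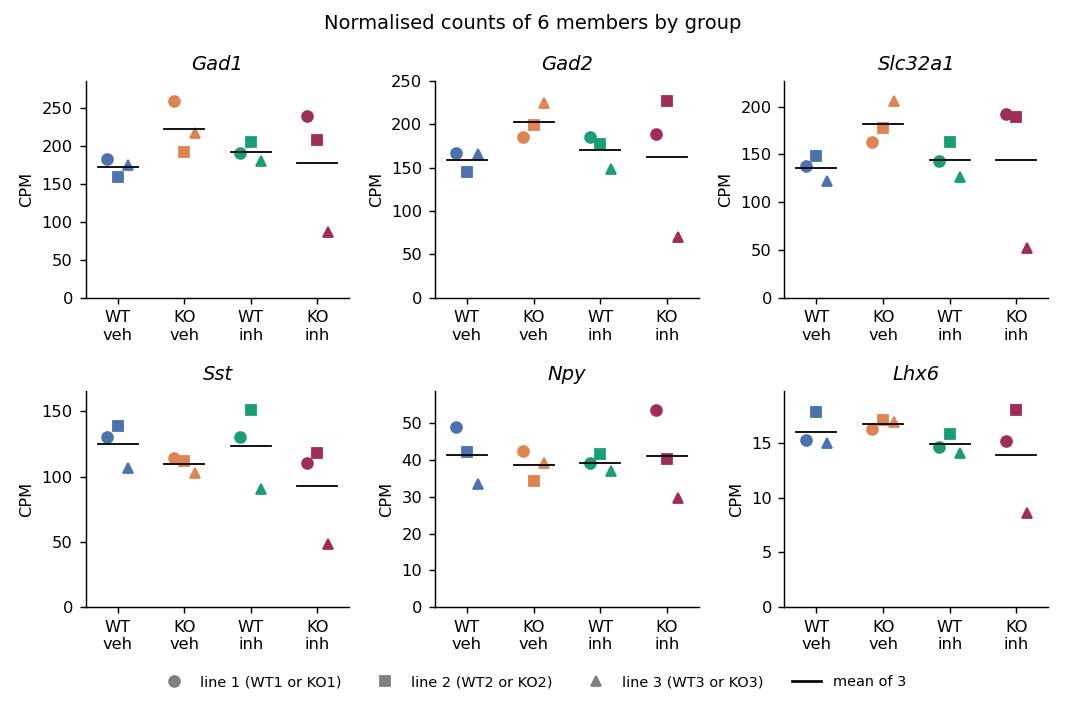
CPM of 6 members in each library by group (WT or KO, vehicle or inhibitor), with a marker for each line of the genotype and a bar at the mean of 3 libraries; each axis starts at 0. For Gad1, Gad2 and Slc32a1 the KO vehicle libraries all lie above the WT vehicle libraries, and the KO3 inhibitor library is the lowest of the 12 for all 6 genes.

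The standard errors of this comparison rested on 1 library outside it. All 12 libraries share 1 estimate of the spread, and without the KO3 inhibitor library the fold changes of Gad1, Gad2 and Slc32a1 in vehicle were again 0.37, 0.35 and 0.42, while their standard errors became 0.11, 0.12 and 0.12. The unadjusted p was then 0.00926, 0.0137 and 0.00525, in a fit in which 8.57% of all genes had an unadjusted p below 0.05. The adjusted p was 0.525, 0.534 and 0.515 (edgeR quasi-likelihood test, Benjamini-Hochberg), so that no member was called in this fit either. With the 2 WT libraries that resembled each other left out as well, the fold changes were 0.32, 0.29 and 0.49 with an adjusted p of 0.728, 0.769 and 0.483 (edgeR).

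Genes outside the members were also separated between the vehicle groups. Slc6a5, the glycine transporter gene, was at 18.3 to 21.5 cRPKM in WT and 27.4 to 33.2 cRPKM in KO, with a log2 fold change of 0.63 ± 0.47. It did not pass the test (adjusted p = 0.999, edgeR quasi-likelihood test). Of the 11 caudal inhibitory neuron genes, 2 were separated and higher in KO and 1 lower, with a median log2 fold change of 0.025, beside 7.62% of all genes separated and higher and 4.90% lower.

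Of 15 interneuron subtype markers 5 were separated and higher in KO and 1 lower, again beside 7.62% and 4.90% of all genes, with a median log2 fold change of 0.27. Lamp5 was at 43.4 to 55.1 cRPKM in WT and 59.2 to 73.2 cRPKM in KO, Tac1 at 33.2 to 44.4 and 51.7 to 70.3 cRPKM, and Calb2 at 26.8 to 39.98 and 40.4 to 75.8 cRPKM. Pvalb, the parvalbumin gene, named after its values were seen, was at 4.13 to 4.93 cRPKM in WT and 7.67 to 8.56 cRPKM in KO. Kit went the other way, at 15.0 to 49.8 cRPKM in WT and 12.8 to 18.1 cRPKM in KO with overlapping groups and a log2 fold change of -0.75 ± 0.80. The separated and lower marker was Vip, the vasoactive intestinal peptide gene, also named after its values were seen, at 0.97 to 2.90 cRPKM in WT and 0.65 to 0.84 cRPKM in KO. None of the 15 was called (edgeR quasi-likelihood test). Of 12 tested ventral forebrain factor genes, 1 was separated and higher in KO and 1 lower, with a median log2 fold change of -0.097. Slc17a6 overlapped between the vehicle groups, at 59.2 to 93.6 cRPKM in WT and 72.6 to 101 cRPKM in KO.

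Markers of other cells differed between the same libraries. The summed level of 8 mesenchymal markers was 32.6 to 247 cRPKM in the WT vehicle libraries and 12.6 to 30.6 cRPKM in the KO vehicle libraries, and all 8 had a negative log2 fold change. The summed level of 7 pan-neuronal markers was 1623 to 2239 cRPKM in WT and 2167 to 2338 cRPKM in KO, and 2 of the 7 were separated and higher in KO, beside 7.62% of all genes. Without the WT2 vehicle library the mesenchymal sum was 32.6 to 92.1 cRPKM and the pan-neuronal sum 2096 to 2239 cRPKM in the WT vehicle libraries. The astrocyte sum (8 markers, 33.7 to 125 cRPKM in WT, 39.5 to 62.1 in KO) and the progenitor sum (8 markers, 29.4 to 152 cRPKM in WT, 38.4 to 70.4 in KO) overlapped. No marker of the mesenchymal, pan-neuronal, astrocyte or progenitor lists was at 0 in all 12 libraries. The part of these markers in the differences of Gad1, Gad2 and Slc32a1 was not tested. Tubb3, a pan-neuronal tubulin gene, was itself 1 of the 2 pan-neuronal markers that were separated and higher in KO. Relative to Tubb3, Gad1 overlapped between the groups, with a cRPKM ratio of 0.133 to 0.150 in WT vehicle and 0.135 to 0.200 in KO vehicle. Ratios of Gad1 to the other pan-neuronal markers are not given here. Relative to Slc17a6, Slc32a1 overlapped as well, at 0.484 to 0.883 in WT and 0.727 to 0.796 in KO. The ratio of Sst to Gad1 did not overlap, at 3.67 to 5.24 in WT (3.67 to 4.29 without the WT2 library) and 2.65 to 3.52 in KO; with 3 against 3 libraries an exact two-sided permutation test cannot go below p = 0.1.

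The second comparison set KO against WT neurons that had received the inhibitor, and its values turned on the KO3 inhibitor library. Gad1 was at 191, 205 and 179.9 CPM in the WT inhibitor libraries and at 240, 207 and 86.7 CPM in the KO inhibitor libraries. Gad2 was at 185, 177 and 148 CPM in WT and at 189, 227 and 70.5 CPM in KO. Slc32a1 was at 143, 163 and 127 CPM in WT and at 192, 189 and 52.2 CPM in KO. In each case the KO1 and KO2 libraries lay above all 3 WT libraries, and that of KO3 lay below them. The log2 fold changes were -0.11 ± 0.30, -0.070 ± 0.33 and 0.0015 ± 0.38, with an adjusted p of 0.921, 0.951 and 0.999 (edgeR quasi-likelihood test, Benjamini-Hochberg).

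Sst was at 130.2, 151 and 90.5 CPM in the WT inhibitor libraries and at 110.4, 118 and 48.7 CPM in the KO inhibitor libraries, with a log2 fold change of -0.42 ± 0.30. Npy was at 39.2, 41.6 and 36.9 CPM in WT and at 53.4, 40.4 and 29.7 CPM in KO, and Lhx6 at 14.6, 15.8 and 14.1 CPM in WT and at 15.1, 18.0 and 8.56 CPM in KO. All of these overlapped, with log2 fold changes of 0.069 ± 0.21 for Npy and -0.097 ± 0.23 for Lhx6. Of the 8 members tested, 0 were separated in either direction, against 3.51% of all genes separated and higher in KO and 7.03% separated and lower. Without the WT3 inhibitor library 1 member, Sst, was separated and lower, against 13.7% of all genes, and 0 were higher, against 8.09%. The count of called genes was 0 of 15443 (0.00%) in edgeR, in which 540 genes (3.50%) and no member had an unadjusted p below 0.05; DESeq2 called 13 genes and no member.

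Without the KO3 inhibitor library the direction of Gad1 and Gad2 in the inhibitor groups turned, and Slc32a1, near 0 before, was higher in KO. Gad1 had a log2 fold change of 0.22 ± 0.13, Gad2 of 0.29 ± 0.13 and Slc32a1 of 0.40 ± 0.13, with an adjusted p of 0.576, 0.525 and 0.496 (edgeR quasi-likelihood test, 2 KO against 3 WT libraries). All 3 genes were then separated and higher in KO, in a setting in which 17.1% of all genes were. Dlx1 was separated and lower in KO, at 0.469 and 0.260 CPM against 0.822, 0.786 and 0.628 CPM, where 19.6% of all genes were; its log2 fold change was -1.03 ± 0.37 and its adjusted p 0.502 (edgeR). Dlx1 thus went against the GABA-handling genes, at 9 and 15 counts in the KO libraries.

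The remaining comparisons set inhibitor against vehicle within each genotype, and so asked what 2 h with the inhibitor went with. In WT neurons the log2 fold change of inhibitor against vehicle was 0.16 ± 0.30 for Gad1, 0.098 ± 0.33 for Gad2, 0.083 ± 0.38 for Slc32a1, -0.016 ± 0.30 for Sst, -0.079 ± 0.21 for Npy and -0.11 ± 0.23 for Lhx6. By the labelled lines WT1, WT2 and WT3, the log2 difference of inhibitor minus vehicle CPM was 0.064, 0.36 and 0.041 for Gad1. It was 0.054, 0.13 and 0.052 for Slc32a1 and 0.15, 0.29 and -0.16 for Gad2. The share of all genes with 1 direction in all 3 lines is not given here. These differences rest on the labelled pairs, and the WT2 vehicle and WT3 inhibitor libraries resembled each other across lines. Of the 8 members tested, 0 were separated, against 3.04% of all genes separated and higher with the inhibitor and 2.93% lower. With the WT2 vehicle and WT3 inhibitor libraries left out, which leaves 2 libraries against 2, Gad1, Gad2, Slc32a1 and Sst were separated and higher and Dlx2 lower, in a setting in which 25.6% of all genes were higher and 15.2% lower. No gene was called (0.00%, edgeR), 47 genes (0.304%) and no member had an unadjusted p below 0.05, and DESeq2 called 0 genes.

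In KO neurons the fold changes again turned on KO3. With all libraries they were -0.32 ± 0.30 for Gad1, -0.32 ± 0.33 for Gad2 and -0.34 ± 0.38 for Slc32a1, with an adjusted p of 0.552, 0.577 and 0.602 (edgeR quasi-likelihood test, Benjamini-Hochberg). Without the KO3 inhibitor library they were 0.0062 ± 0.13, 0.037 ± 0.13 and 0.065 ± 0.13. The values of Sst, Lhx6 and Npy with all libraries were -0.25 ± 0.30, -0.27 ± 0.23 and 0.090 ± 0.21. Within KO3 the log2 difference of inhibitor minus vehicle CPM was -1.32 for Gad1, -1.67 for Gad2 and -1.98 for Slc32a1, while in KO1 and KO2 it was -0.11 and 0.11 for Gad1, 0.029 and 0.19 for Gad2, and 0.23 and 0.094 for Slc32a1. Of the 8 members, 0 were separated, against 3.19% of all genes separated and higher with the inhibitor and 5.65% lower. Without the KO3 inhibitor library, Dlx1 and Dlx2 were separated and lower with the inhibitor, at 6 to 15 counts, in a setting in which 8.41% of all genes were lower and 5.52% higher. No gene was called in edgeR (0.00%), although 1088 genes (7.05%) had an unadjusted p below 0.05, none of them a member, and DESeq2 called 0 genes. Whether the effect of the inhibitor differed between the genotypes was tested as an interaction, which called 0 genes in edgeR and in DESeq2. For Gad1, Gad2 and Slc32a1 the interaction was -0.48 ± 0.43, -0.42 ± 0.47 and -0.42 ± 0.54, with an adjusted p of 0.808, 0.811 and 0.821 (edgeR), and without the KO3 inhibitor library it was -0.15 ± 0.17, -0.060 ± 0.17 and -0.018 ± 0.18. The interaction had an unadjusted p below 0.05 for 185 genes (1.20%) and for no member in edgeR.

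**Figure D4:**
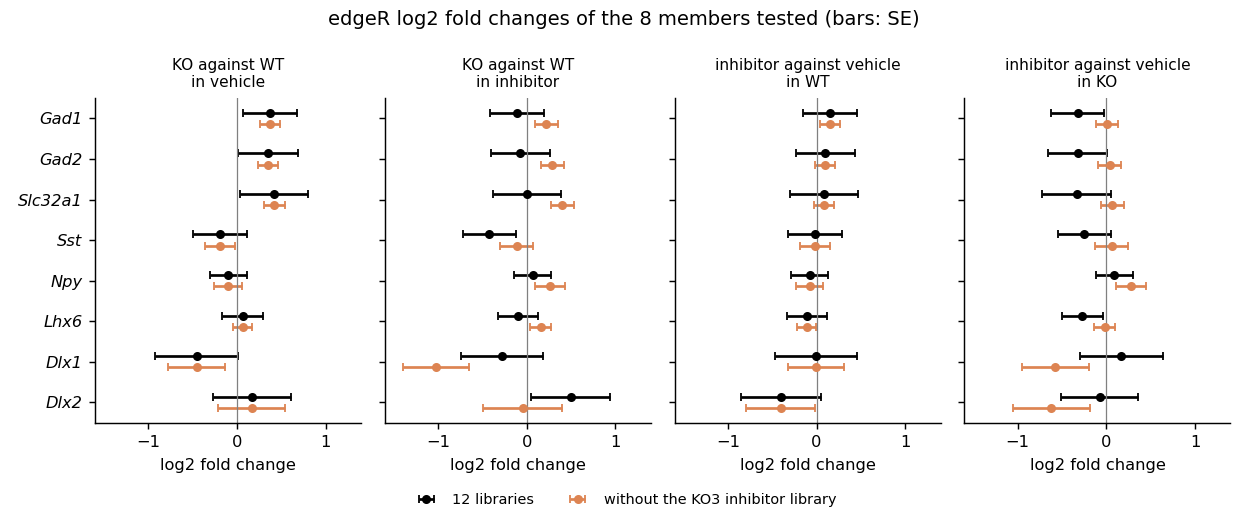
Log2 fold change with its SE (edgeR) of the 8 members tested in 4 comparisons, with all 12 libraries (black) and without the KO3 inhibitor library (orange). In vehicle the fold changes are the same in both and only the bars shorten, whereas in the inhibitor groups those of Gad1, Gad2, Lhx6 and Dlx2 change sign.

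The genotype was also compared over lines, with the vehicle and inhibitor counts of each line summed. The log2 fold change of KO against WT was 0.15 ± 0.20 for Gad1, 0.16 ± 0.17 for Gad2, 0.23 ± 0.19 for Slc32a1, -0.29 ± 0.23 for Sst and -0.35 ± 0.32 for Dlx1, with an adjusted p of 0.998 for each (edgeR quasi-likelihood test, 3 KO against 3 WT lines). Of the 8 members, 0 were separated, against 3.82% of 16090 genes separated and higher in KO and 4.72% lower. No gene was called in edgeR (0.00%), 426 genes (2.65%) and no member had an unadjusted p below 0.05, and DESeq2 called 134 genes and no member. Without line WT2 the fold changes of Gad1, Gad2 and Slc32a1 were 0.15, 0.14 and 0.30, and without line WT3 they were 0.13, 0.12 and 0.15. With KO3 represented by its vehicle library alone, the fold changes were 0.29 ± 0.081 for Gad1, 0.35 ± 0.086 for Gad2 and 0.44 ± 0.096 for Slc32a1, with an adjusted p of 0.137, 0.127 and 0.115 (edgeR). Dlx1 then had a log2 fold change of -0.69 ± 0.22 with an adjusted p of 0.151 (edgeR). No member was called in that setting, which called 29 genes in all.

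The library that stood apart was low in every expressed member, but not by the same factor. In the KO3 inhibitor library the CPM relative to the mean of the other 11 libraries was 0.325 for Slc32a1, 0.385 for Gad2, 0.410 for Sst, 0.432 for Gad1, 0.535 for Lhx6 and 0.722 for Npy. Each of these 6 genes had its lowest value of the 12 libraries there, as did 39.0% of all 15443 genes tested. Dlx1 and Dlx2, at 1.79 and 1.91, had their highest value of the 12 there, with 35 and 16 counts, as did 38.4% of all genes. The median ratio of all genes tested was 0.971.

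Neuronal genes of other kinds were lower still in that library, and glial and progenitor genes were higher. All 7 pan-neuronal markers were below the mean of the others, with a median ratio of 0.284, and Slc17a6 was at 0.160. The ratio of Slc32a1 to Slc17a6 in cRPKM was 1.50 there, above the 0.484 to 0.883 of the other 11 libraries. That of Gad1 to Slc17a6 was 2.07, above 0.575 to 1.05, and that of Gad1 to Tubb3 was 0.245, above 0.133 to 0.200. The astrocyte sum was 434 cRPKM against 33.7 to 125 in the other 11, and the progenitor sum was 595 cRPKM against 29.4 to 171. The part of these cells in the levels of the members was not tested. Among the other inhibitory genes Slc6a5 was at 0.243 of the mean of the others and Lhx1 at 0.525, while Kit was at 6.92 and Npas1 at 0.0551.

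**Figure D5:**
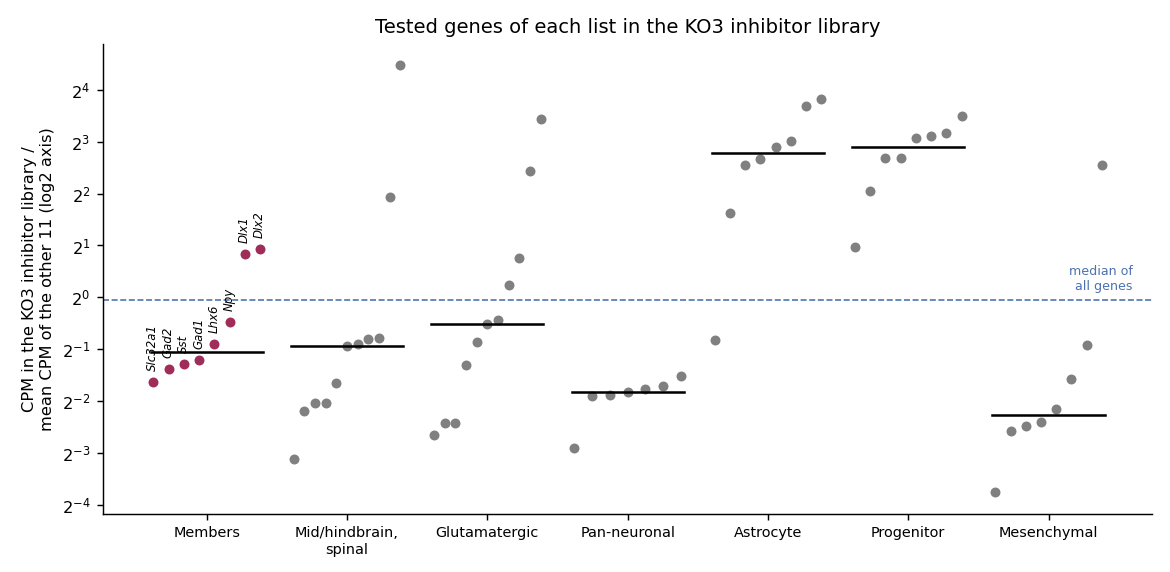
CPM in the KO3 inhibitor library divided by the mean CPM of the other 11 libraries, on a log2 axis, for the tested genes of 7 lists; points are genes, black bars are list medians and the dashed line is the median of all genes. The expressed members lie between 0.325 and 0.722, and the medians of the pan-neuronal, astrocyte and progenitor lists are 0.284, 6.89 and 7.44.

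Across libraries, correlations among the 6 expressed members were lower when the KO3 inhibitor library was left out. Those of Dlx1 and Dlx2 with the expressed members, all negative over 12 libraries, moved upward, for Gad1 and Dlx2 from -0.36 to 0.43. Over 12 libraries Pearson's r of log2 CPM was 0.91 between Gad1 and Gad2, 0.92 between Gad1 and Slc32a1 and 0.96 between Gad2 and Slc32a1; over the other 11, r was 0.60, 0.64 and 0.81. For Sst, r with Gad1 was 0.73 over 12 libraries and -0.16 over 11, and r with Slc32a1 was 0.78 and 0.0073. Sst and Npy had an r of 0.62 over 12 libraries and 0.32 over 11. Libraries of 1 line share their cells of origin, so these values are descriptions without a test.

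The genes whose log2 CPM was most like that of a member, among all genes tested, changed with that library too. Over 12 libraries they were Tusc3 (r = 0.976), Ccdc148 and Zfp81 for Gad1, Irs4 (0.993), Ahi1 and the serotonin receptor gene Htr2a for Gad2, and the tubulin gene Tuba4a (0.989), Thy1, for a neuronal surface protein, and the chemokine gene Cx3cl1 for Slc32a1. For Lhx6 they were the activin subunit gene Inhbb (0.985), Trim62 and Lrfn3, for Sst they were Tmem9 (0.962) and the neuropeptide precursor gene Pnoc, and for Npy they were Gm45623 (0.880) and the transcription factor genes Pax8 and Egr4. Over the 11 libraries the r of the first gene of each list was 0.899 for Gad1, 0.969 for Gad2, 0.955 for Slc32a1, 0.931 for Lhx6, 0.822 for Sst and 0.908 for Npy. Of the 3 genes named for each member other than Sst, those still among its 3 most alike over 11 libraries numbered 1 for Slc32a1, Lhx6 and Npy and 0 for Gad1 and Gad2.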

How the data were processed

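Poly(A) RNA from 12 libraries was analysed from 1 table per library. The authors deposited whole-number read counts per Ensembl gene, not normalized, and cRPKM, an RPKM scaled by gene length and library size whose correction is not explained in the files, which have no header. The build is mm10 per the submitters' processing notes; the aligner, annotation, filters and strand setting of counting are not given in the sources used here. Each table lists 36902 genes, of which 3342 are NA and 33560 have counts; 33371 identifiers matched a symbol. Groups came from the labels alone.

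Counts were tested with edgeR 4.0.16 in R 4.3.3 (TMM factors, filterByExpr by group, robust quasi-likelihood F test) in 1 fit of 12 libraries over 15443 genes, and over 6 line sums with 16090 genes. P-values were adjusted over all genes by the Benjamini-Hochberg method, with calls at 0.05. The SE of a log2 fold change was derived from it and the F statistic. The procedure was tested on simulated counts. Recovery of changed genes was required there only at a spread below that of these data, whose biological coefficient of variation was 0.411 over 12 libraries. The simulation therefore does not show the power of the tests reported here. CPM uses TMM factors; a group is separated from another where no library overlaps. Likeness is Pearson's r of log2 CPM with a prior count of 2, among genes with a symbol that were tested, for members with a mean of at least 1 CPM; up to 3 genes were named per member. From each other list the 4 genes with the highest mean cRPKM were named, and any gene called; further genes were named where a result turned on them, after their values were seen. Some genes that these rules name are not reported here.

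Vehicle and inhibitor libraries of 1 labelled line form a pair. Deviations from the group means correlated between the libraries of a line at 0.41, -0.55 and -0.72 in the 3 WT lines and at -0.19, 0.57 and -0.37 in the 3 KO lines. By their labels, WT and KO libraries share only a number. Between WT and KO libraries of the same number, the deviations correlated at -0.35, -0.65 and 0.17 in vehicle and at 0.38, 0.65 and 0.80 in inhibitor. Alternatives were RLE scaling, library totals alone, no filter, DESeq2 1.42.0, each library left out, and another prior count of 0.5. A further alternative blocked on the line for treatment comparisons and the interaction, and on the replicate number for genotype comparisons. The members and lists were chosen with earlier results of these data known. Coordinates are from GENCODE M21; promoter windows are RefSeq's.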

Additional observations from a re-analysis of the deposited data

How the results depend on the processing

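No member was called in any comparison under any alternative run, and the smallest adjusted p of a member was 0.115 (edgeR), for Slc32a1 over line sums with KO3 from its vehicle library alone. In vehicle, Gad1, Gad2, Slc32a1, Lhx6, Sst and Dlx1 kept their direction in every alternative, 3 of them with leave-one-out ranges of 0.25 to 0.47 (Gad1), 0.27 to 0.41 (Gad2) and 0.32 to 0.49 (Slc32a1). The largest shift of the median of all genes by another scaling was 0.065. Counts of called genes, 0 in the edgeR tests, became 10 in vehicle, 13 in inhibitor and 134 over line sums with DESeq2, and 2 over line sums without the filter. Of 3 alternatives chosen after seeing the data, that for separated members is given with those counts; the other two gave 2 called genes in vehicle and 1 in inhibitor with 3 libraries left out (KO3 inhibitor, WT2 vehicle, WT3 inhibitor), and 29 over line sums with KO3 from vehicle alone. With those 3 libraries left out, log2 fold changes turned sign for Dlx2 in vehicle (-0.035), and in inhibitor for Gad1 (0.22), Gad2 (0.24), Dlx2 (-0.18) and Lhx6 (0.16). They also turned for the inhibitor in WT for Dlx1 (0.072) and Sst (0.22), and in KO for Gad1 (0.021), Gad2 (0.051), Slc32a1 (0.077), Dlx1 (-0.57) and Sst (0.075). The interaction turned there for Dlx1 (-0.64), Dlx2 (-0.14) and Lhx6 (0.0090). With the replicate number as a block in the genotype comparisons, sign turned for Slc32a1 in inhibitor (-0.078) and for Lhx6 over line sums (-0.010). With the line as a block of paired libraries in the treatment comparisons, sign turned for Dlx1 under the inhibitor in WT (0.020) and in KO (-0.030). Neither block changed a call of a member. Leaving out each library in turn gave values on both sides of 0 for Dlx2 (-0.044 to 0.40) and Npy (-0.23 to 0.038) in vehicle, and for Gad1 over line sums (-0.044 to 0.32). In inhibitor these ranges were -0.38 to 0.22 (Gad1), -0.39 to 0.29 (Gad2), -0.26 to 0.40 (Slc32a1), -1.03 to 0.080 (Dlx1), -0.046 to 0.78 (Dlx2), -0.33 to 0.16 (Lhx6) and -0.17 to 0.26 (Npy). For the inhibitor in WT they were -0.013 to 0.17 (Slc32a1), -0.18 to 0.21 (Dlx1), -0.18 to 0.17 (Sst) and -0.21 to 0.058 (Npy). In KO they were -0.60 to 0.0062 (Gad1), -0.65 to 0.037 (Gad2), -0.60 to 0.065 (Slc32a1), -0.57 to 0.53 (Dlx1), -0.62 to 0.21 (Dlx2), -0.47 to 0.061 (Sst) and -0.15 to 0.28 (Npy). The cause of these turns was not tested. At 5 to 35 counts per library, Dlx1 and Dlx2 were limited by depth.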

Other observations

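Ratios between members within a library, in cRPKM, separated the vehicle groups in cases other than that of Sst to Gad1. The ratio of Npy to Gad1 was 1.22 to 1.72 in the WT vehicle libraries and 1.05 to 1.16 in the KO vehicle libraries. The ratio of Lhx6 to Sst was 0.0204 to 0.0243 in WT and 0.0247 to 0.0286 in KO. That of Gad2 to Gad1 overlapped, at 0.539 to 0.560 in WT and 0.422 to 0.615 in KO, as did that of Slc32a1 to Gad1, at 0.842 to 1.12 in WT and 0.757 to 1.14 in KO. In the inhibitor groups Npy to Gad1 overlapped, at 1.30 to 1.32 in WT and 1.25 to 2.19 in KO, with the higher mean in KO. Sst to Gad1 overlapped there too, at 3.02 to 4.43 in WT and 2.77 to 3.44 in KO, as did Lhx6 to Sst, at 0.0183 to 0.0270 in WT and 0.0238 to 0.0305 in KO. These ratios were not tested, and they were picked out of 13 ratios after their values were seen.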
